A study of Mus musculus with 8 samples.

Results

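The genes described here are 10 transcription factors of the epicardium and the developing heart, chosen by name from the 35275 genes of the deposited tables: Wt1, Gata4, Gata6, Tbx18, Tbx20, Tbx5, Tcf21, Scx, Bnc1 and Bnc2. RNA sequencing measured their messenger RNA in an epicardial cell line of the mouse, which the labels call MEC or MCEC. The KO group held 4 libraries of these cells labelled as CRISPR/Cas9 knockouts of Hdac3, a histone deacetylase, after transduction with a lentivirus that carries an Hdac3 guide RNA. The EV group held 4 libraries of the same line transduced with an empty lentiviral vector, so both groups had been through transduction. All cells were grown in high-glucose DMEM with fetal bovine serum, and the labels say neither whether the KO cells are a single clone nor whether the libraries of a group came from separate cultures. The p-values therefore measure the spread between these libraries, which may be technical. For KO replicate 1 the title says KO, but a second label gives empty vector transduction. It was kept in the KO group by its title, and the 10 factors had the same calls without it.

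The epicardium is the mesothelial layer that covers the heart. During development some of its cells undergo an epithelial-to-mesenchymal transition and give rise to fibroblasts and mural cells of the coronary vessels, and the layer also secretes growth factors that act on the heart muscle. WT1, TBX18 and TCF21 are the factors most often used to mark epicardial cells in the mouse. GATA4 and GATA6 are zinc finger proteins that bind GATA motifs, TBX5, TBX18 and TBX20 are T-box proteins, TCF21 and scleraxis (SCX) are basic helix-loop-helix proteins, and basonuclins 1 and 2 (BNC1 and BNC2) are zinc finger proteins of epithelial and mesenchymal cells.

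Of the 10 factors, 5 fell in KO cells, none rose, 4 did not pass the test and 1, Tbx5, had no reads in any library. Bnc2 and Tcf21 fell the most, followed by Gata4, Wt1 and Tbx20. Gata6, Bnc1, Tbx18 and Scx were not called. Calls were made with edgeR's quasi-likelihood test at a Benjamini-Hochberg adjusted p below 0.05 over the 12801 genes that had enough counts to be tested. The 5 falls are 55.6% of the 9 tested factors, beside 13.4% of all tested genes called lower in KO, 12.6% called higher and 26.0% called in either direction. The factors were chosen with earlier results of these data known, so this share is a description. The median log2 fold change was -0.255 over the 9 factors and 0.01 over all tested genes. In the same 5 genes the KO and EV libraries did not overlap, with every KO library lower, which held for 13.9% of all tested genes in that direction and for 26.5% in either direction. Since RNA was taken from bulk cultures, fewer cells that express a gene and less RNA per cell cannot be told apart.

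**Figure D1:**
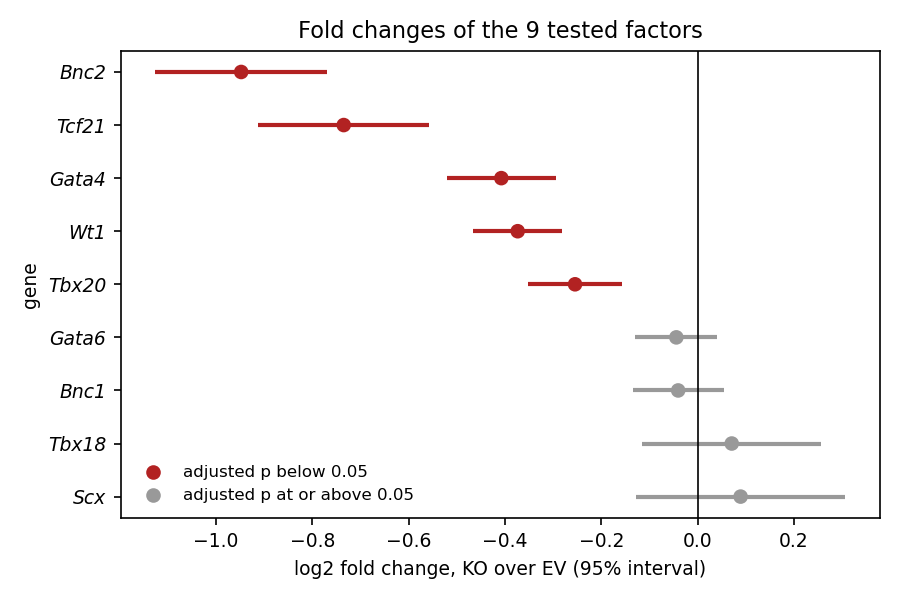
The log2 fold change of each of the 9 tested factors, KO over EV, is shown as a point with its 95% interval (4 libraries a group), with red for an adjusted p below 0.05 and grey for the others. The intervals of Bnc2, Tcf21, Gata4, Wt1 and Tbx20 lie wholly below 0, and those of Gata6, Bnc1, Tbx18 and Scx span 0.

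Levels of different genes are compared in FPKM, the deposited unit, which divides counts by gene length and by the library total. In KO cells the order was Gata6 (106 ± 2.06 FPKM), Wt1 (83.7 ± 2.81), Bnc1 (74.9 ± 2.05), Tcf21 (48.3 ± 5.43), Tbx20 (28.4 ± 1.02), Gata4 (23.7 ± 0.677), Scx (15.1 ± 1.5), Tbx18 (3.55 ± 0.302) and Bnc2 (3.25 ± 0.253; mean ± SD, n = 4 each). Among neighbours in that order, only Tbx18 and Bnc2 overlapped. In EV cells Gata6 (113 ± 1.93 FPKM) and Wt1 (112 ± 4.46) overlapped, as did Tcf21 (83.2 ± 10.8) with Bnc1 (79.8 ± 4.36) and Tbx20 (35.1 ± 1.88) with Gata4 (32.6 ± 2.31), while Scx (14.7 ± 2.12), Bnc2 (6.497 ± 0.604) and Tbx18 (3.50 ± 0.329) stood apart from their neighbours. Thus Gata6 and Wt1, level in EV cells, were separated in KO cells, Tcf21 stood below Bnc1 in KO cells, and Bnc2 had dropped into the range of Tbx18. The summed level of the 10 factors was 387 ± 5.16 FPKM in KO and 481 ± 5.45 FPKM in EV libraries (SD, n = 4 each). Of that sum, Gata6 made up 27.4 ± 0.325% in KO and 23.6 ± 0.401% in EV libraries, and Tcf21 made up 12.5% in KO and 17.3% in EV libraries on average.

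**Figure D2:**
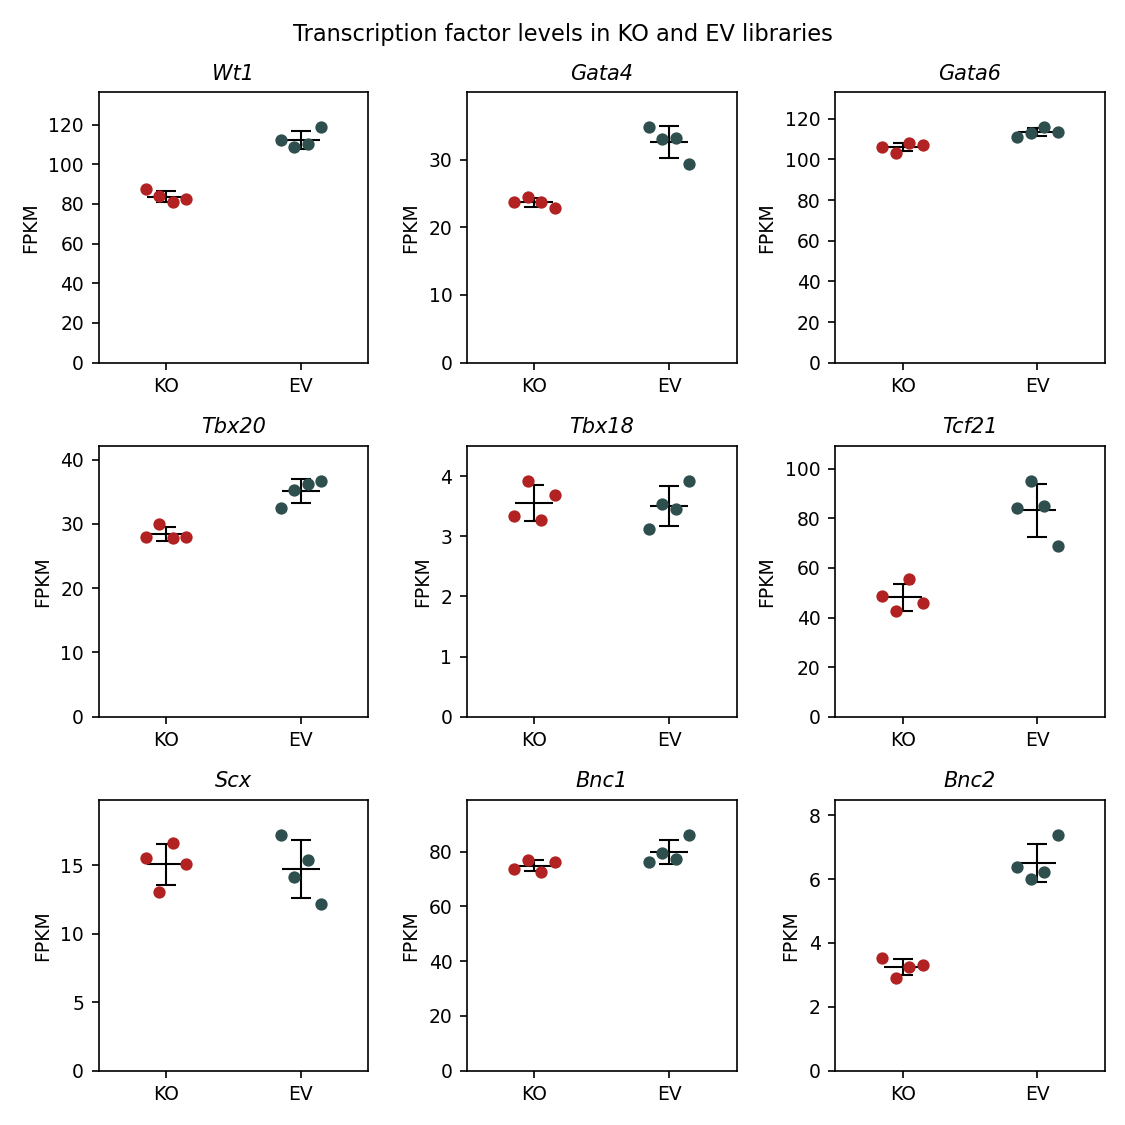
Each panel gives the FPKM of a factor in the 4 KO libraries (red, left) and the 4 EV libraries (dark, right), in the order of their replicate numbers, with the mean and SD in black and the axis starting at 0. The KO points lie below the EV points for Wt1, Gata4, Gata6, Tbx20, Tcf21 and Bnc2 on this scale, which carries no correction for library composition, and overlap them for Tbx18, Scx and Bnc1.

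Wt1 encodes the zinc finger protein of the Wilms tumour locus, which in the mouse is needed for a normal epicardium. The gene (ENSMUSG00000016458, mm10 chromosome 2, 105126529 to 105173616, plus strand) had 275.5, 262.5, 256 and 259.7 CPM (counts scaled to the library total corrected by TMM composition factors) in KO replicates 1 to 4, and 343, 326, 337 and 359 CPM in EV replicates 1 to 4. Every KO library was below every EV library, and the KO libraries lay within 20 CPM of each other. Wt1 fell to 264 ± 8.43 CPM in KO cells, against 341 ± 13.7 CPM in EV cells, which is 77.2% of the EV level (log2 fold change -0.37, SE 0.0441, edgeR adjusted p = 3.17e-06). Each value rests on at least 5191 counts. A larger fall was measured for 8.59% of the tested genes. Wt1 nevertheless stayed at the 93.9th percentile of tested genes by FPKM in KO cells, against the 95.8th in EV cells. Wt1os, an antisense RNA whose annotated span ends 18 bases from Wt1 on the opposite strand, was looked at after its values were seen. It had 11.8 ± 1.69 CPM in KO cells and 15.8 ± 0.961 CPM in EV cells (log2 fold change -0.42, SE 0.102, edgeR adjusted p = 0.00445). The spans do not overlap in the deposited coordinates, but no source used here gives the strand setting of the counting, so reads near the boundary cannot be assigned to a strand.

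The GATA pair divided. Gata4, whose product is needed in mice for the proepicardium to form, fell, and Gata6, the other GATA gene of the heart with a high level in these cells, was not called. Gata4 (ENSMUSG00000021944, mm10 chromosome 14, 63198922 to 63271692, minus strand) had 82.2, 84.4, 82.7 and 79.3 CPM in KO libraries and 117, 109.5, 112 and 97.7 CPM in EV libraries. The groups were apart, with EV replicate 4 the lowest of the EV libraries. Gata4 fell to 82.2 ± 2.13 CPM in KO cells, against 109 ± 8.17 CPM in EV cells (75.4% of the EV level; log2 fold change -0.41, SE 0.0542, edgeR adjusted p = 1.4e-05). Gata6 (ENSMUSG00000005836, mm10 chromosome 18, 11052510 to 11085635, plus strand) had 345, 334, 353 and 349 CPM in KO libraries and 351, 352, 366 and 355 CPM in EV libraries. The groups overlapped, since KO replicate 3 was above EV replicates 1 and 2. Its log2 fold change was -0.04 with a 95% interval from -0.13 to 0.04 (edgeR adjusted p = 0.464), so a fall of the size seen in Gata4 lies outside the interval. On the FPKM scale, which lacks the composition factors, the Gata6 libraries did not overlap (103.3 to 108 in KO and 111 to 116 in EV). Gata6 shares 58 bases with 1010001N08Rik, a long noncoding RNA on the opposite strand that had 14.7 ± 1.18 CPM in KO and 13.2 ± 0.740 CPM in EV cells and was not called (edgeR adjusted p = 0.255).

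Among the T-box genes, Tbx20 fell slightly, Tbx18 was not called, and Tbx5 was not detected. TBX20 is needed in the mouse for growth and patterning of the heart tube, TBX18 is expressed in the proepicardium and epicardium, and TBX5 acts in the atria, the left ventricle and the conduction system. Tbx20 (ENSMUSG00000031965, mm10 chromosome 9, 24720812 to 24774303, minus strand) had 182.7, 195.3, 182.7 and 184.0 CPM in KO libraries and 207, 221, 230.2 and 231 CPM in EV libraries. All KO libraries were below all EV libraries, and KO replicate 2 stood above the other KO libraries. Tbx20 fell to 186 ± 6.10 CPM in KO cells, against 222 ± 11.3 CPM in EV cells (83.8% of the EV level; log2 fold change -0.25, SE 0.0466, edgeR adjusted p = 0.000429). It was the smallest of the 5 falls, and 13.7% of tested genes had a larger one. Tbx18 (ENSMUSG00000032419, mm10 chromosome 9, 87702800 to 87731260, minus strand) had 15.9, 18.6, 15.6 and 17.6 CPM in KO libraries and 14.4, 16.1, 15.97 and 17.9 CPM in EV libraries. The 2 groups overlapped, with the highest library in KO and the lowest in EV. Its log2 fold change was 0.07, with a 95% interval from -0.11 to 0.26 (edgeR adjusted p = 0.597). For a gene used as an epicardial marker its level was low, at the 30.5th percentile of tested genes in KO and the 29.2nd in EV cells. Tbx5 (ENSMUSG00000018263, mm10 chromosome 5, 119834663 to 119885218, plus strand) had 0 counts in all 8 libraries. A count of 3 would have been 0.122 to 0.156 CPM in KO libraries and 0.135 to 0.166 CPM in EV libraries, so a level below that is not detectable at this depth, and no fold change was computed.

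The sequences upstream of Tbx20 and Tbx18 are given as a description, since both genes lie on the same chromosome and belong to the same T-box subfamily. Neither the likeness of these promoters nor a bearing on the calls was tested. Each sequence is the 250 bases before the start annotated by RefSeq (GRCm38.p6, the build also called mm10), read 5′ to 3′ on the minus strand. That of Tbx20 is chr9:24774304-24774553 and that of Tbx18 is chr9:87731261-87731510. The GATA motif was searched as AGATAA, the half-site of T-box proteins as AGGTGT, the motif of WT1 and EGR proteins as GCGTGGG, the TATA box as TATAAA and the CCAAT box by the letters of its name, all on both strands. Capitals mark the only match in either sequence.
Tbx20: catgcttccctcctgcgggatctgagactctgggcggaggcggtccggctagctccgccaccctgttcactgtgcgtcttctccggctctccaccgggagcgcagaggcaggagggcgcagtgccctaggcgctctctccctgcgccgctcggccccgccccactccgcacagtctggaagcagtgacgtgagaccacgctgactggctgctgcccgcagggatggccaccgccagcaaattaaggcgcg
Tbx18: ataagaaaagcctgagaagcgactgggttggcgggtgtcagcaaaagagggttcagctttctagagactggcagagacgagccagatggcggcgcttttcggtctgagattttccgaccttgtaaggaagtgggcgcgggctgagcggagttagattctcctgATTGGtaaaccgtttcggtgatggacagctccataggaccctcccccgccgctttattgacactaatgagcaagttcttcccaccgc
The Tbx20 sequence has a GC content of 68.8% and none of the 5 motifs. The Tbx18 sequence has a GC content of 54.0% and a CCAAT box on the opposite strand, 87 bases before the start, which 36.8% of the 9329 promoters of tested genes also hold. It also has an E-box (CANNTG), the motif of basic helix-loop-helix proteins, 168 bases before the start, not capitalised because 55.6% of promoters hold it. The median GC content of those promoters was 60.4%. A match is a description of the letters and does not show that a protein binds there.

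The helix-loop-helix pair also divided. Tcf21, which in the mouse is required for epicardial cells to become cardiac fibroblasts, fell, and Scx, which specifies tendon progenitors and marks part of the proepicardium, was not called. Tcf21 (ENSMUSG00000045680, mm10 chromosome 10, 22817279 to 22820128, minus strand) had 60.6, 53.0, 69.4 and 57.5 CPM in KO libraries and 102, 113, 103 and 82.4 CPM in EV libraries. The highest KO library lay below the lowest EV library, replicate 4. Tcf21 fell to 60.1 ± 6.91 CPM in KO cells, against 100.1 ± 12.9 CPM in EV cells (60.1% of the EV level; log2 fold change -0.74, SE 0.0845, 95% interval -0.91 to -0.56, edgeR adjusted p = 2.3e-06). A larger fall was measured for 3.03% of tested genes, and its rank by FPKM was at the 89.0th percentile in KO against the 93.9th in EV cells. Scx (ENSMUSG00000034161, mm10 chromosome 15, 76457438 to 76459468, plus strand) had 17.9, 15.04, 19.3 and 17.5 CPM in KO libraries and 19.3, 15.7, 17.3 and 13.5 CPM in EV libraries. The libraries of both groups were interleaved. Its log2 fold change was 0.09, with a 95% interval from -0.13 to 0.31 (edgeR adjusted p = 0.569). The whole Scx gene lies inside Bop1, a ribosome biogenesis gene on the opposite strand with 55.8 ± 2.24 CPM in KO and 52.0 ± 1.62 CPM in EV cells, so the Scx counts are uncertain where counting did not use strand.

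The sequence upstream of Tcf21 is shown because it alone holds a GATA motif among the promoters of the 5 factors matched in the promoter set used here. It covers chr10:22820144-22820393 (GRCm38.p6, minus strand, 5′ to 3′), and capitals mark that motif, AGATAA.
Tcf21: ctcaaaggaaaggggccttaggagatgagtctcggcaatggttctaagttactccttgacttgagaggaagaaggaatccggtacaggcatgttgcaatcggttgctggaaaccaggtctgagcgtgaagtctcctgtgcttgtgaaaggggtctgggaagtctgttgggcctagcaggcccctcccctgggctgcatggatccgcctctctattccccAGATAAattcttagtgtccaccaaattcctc
The motif lies 31 bases before the RefSeq start, and 5.41% of the 9329 promoters of tested genes hold at least 1 match on either strand. The sequence has a GC content of 52.4% and no E-box. No letters of the other 4 motifs are in this window.

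The basonuclins divided as well. Bnc2, known in the mouse for its role in craniofacial and other mesenchymal cells, showed the largest fall of the 10 factors, while Bnc1, a factor of stratified epithelia and mesothelium, was not called. Bnc2 (ENSMUSG00000028487, mm10 chromosome 4, 84275095 to 84675275, minus strand) had 14.8, 12.2, 13.8 and 14.0 CPM in KO libraries and 26.1, 24.2, 25.5 and 29.8 CPM in EV libraries. The highest KO library was far below the lowest EV library. Bnc2 fell to 13.7 ± 1.09 CPM in KO cells, against 26.4 ± 2.44 CPM in EV cells (51.8% of the EV level; log2 fold change -0.95, SE 0.0850, 95% interval -1.13 to -0.77, edgeR adjusted p = 8.47e-08). Only 1.68% of tested genes had a larger fall. The counts behind these values ran from 249 to 336 in KO and from 477 to 629 in EV libraries. Bnc1 (ENSMUSG00000025105, mm10 chromosome 7, 81966672 to 81992299, minus strand) had 349, 363, 345 and 363 CPM in KO libraries and 351, 361, 356 and 392 CPM in EV libraries. The groups overlapped, and EV replicate 4 was the highest of the 8. Its log2 fold change was -0.04, with a 95% interval from -0.14 to 0.05 (edgeR adjusted p = 0.553). Bnc1 shares 298 bases with 4833418N17Rik, a pseudogene on the opposite strand with 0.806 ± 0.473 CPM in KO and 0.360 ± 0.258 CPM in EV cells. Gm12421, a pseudogene inside Bnc2 on the same strand, had 0 counts in all libraries.

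The sequence upstream of Bnc1, whose level was nearly the same in both groups, is shown as the most GC-rich of the promoters matched. It covers chr7:81992300-81992549 (GRCm38.p6, minus strand, 5′ to 3′), and nothing is capitalised because no motif of the search is in it.
Bnc1: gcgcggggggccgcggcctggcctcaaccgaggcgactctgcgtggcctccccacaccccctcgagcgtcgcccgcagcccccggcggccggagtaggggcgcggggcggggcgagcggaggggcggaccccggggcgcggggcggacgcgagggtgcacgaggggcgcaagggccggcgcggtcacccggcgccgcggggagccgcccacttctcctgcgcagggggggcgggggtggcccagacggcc
Its GC content was 83.6%, above the upper quartile of 67.2% over the promoters of tested genes. The RefSeq start of Bnc2 lies inside the gene span of the deposited table, with a GC content of 35.6% before it, so its upstream sequence is not printed.

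The ratio of related factors within a library needs no scaling between libraries. The Bnc1 to Bnc2 ratio of FPKM was 21.0, 26.4, 22.3 and 23.1 in KO libraries and 11.9, 13.3, 12.4 and 11.7 in EV libraries. The ranges were far apart, with means of 23.2 ± 2.33 in KO and 12.3 ± 0.702 in EV libraries (SD, n = 4 each). The Gata4 to Gata6 ratio was 0.224 ± 0.00993 in KO and 0.288 ± 0.0224 in EV libraries (SD, n = 4 each), and its ranges of 0.214 to 0.237 in KO and 0.259 to 0.313 in EV did not overlap. The Tbx18 to Tbx20 ratio was 0.125 ± 0.00735 in KO and 0.0996 ± 0.00530 in EV libraries (SD, n = 4 each), again without overlap, at 0.117 to 0.132 in KO and 0.0954 to 0.107 in EV. On the log2 scale, with 0.1 FPKM added to each value, the KO minus EV differences were 0.89 for the basonuclins, -0.36 for the GATA pair and 0.32 for the T-box pair. Each gave p = 0.0286 in a two-sided exact permutation test over all 70 arrangements of the 8 libraries, the smallest p this design allows, and 0.0286 after adjustment over the 3 ratios. These pairs were chosen with earlier results of these data known. Each sets a factor that fell against a factor that was not called. The ratios thus restate those results and are no separate support for them.

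**Figure D3:**
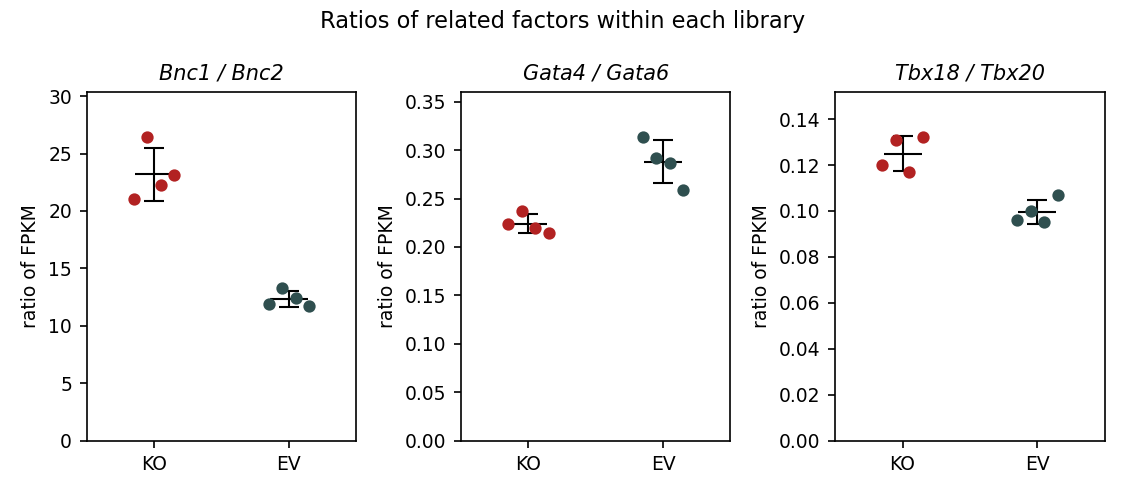
Ratios of FPKM within each library are shown for 3 pairs of related factors, with 4 KO libraries in red on the left, 4 EV libraries in dark on the right, and the mean and SD in black. Bnc1 to Bnc2 (21.0 to 26.4 in KO, 11.7 to 13.3 in EV) and Tbx18 to Tbx20 lie higher in KO libraries, and Gata4 to Gata6 lies lower.

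The series title places the study in a microRNA pathway. MicroRNAs were not measured in these libraries, and the following sequences only show which of the factors carry complementary letters. The seed of a microRNA, its bases 2 to 8, pairs with sites in the 3′ UTR of messenger RNAs. Mouse miR-322-5p and miR-503-5p come from neighbouring positions on chromosome X, and their mature sequences in RefSeq (GRCm38.p6, minus strand, chrX:53054306-53054327 and chrX:53054027-53054049) are given with the seed in capitals.
miR-322-5p: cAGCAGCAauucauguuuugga
miR-503-5p: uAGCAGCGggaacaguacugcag
The seed of miR-322-5p is shared by miR-15a-5p, miR-15b-5p, miR-16-5p, miR-195a-5p and miR-497a-5p and pairs with TGCTGCT. In the longest annotated 3′ UTR of each gene (GENCODE M21), Tcf21 held this site 1 time and Tbx20 held it 2 times, and the other 8 factors did not hold it. The sites are printed with their flanking bases, a stretch at chr10:22818431-22818459 for Tcf21 and stretches at chr9:24724425-24724453 and chr9:24718152-24718180 for Tbx20 (minus strand, 5′ to 3′), with the site itself in capitals.
Tcf21 site: aacatttataatTGCTGCTaccttcatct
Tbx20 first site: atacatctgcttTGCTGCTgtttccatcc
Tbx20 second site: gggacttctgttTGCTGCTgggggaaata
The second Tbx20 site lies beyond the end of the gene in the deposited table, which uses another annotation release. Of 11861 tested genes with a 3′ UTR, 25.3% held TGCTGCT at least once, and the UTR of Tbx20, at 7314 bases, is far longer than the median of 1223. CGCTGCT, which pairs with the seed of miR-503-5p, was in the 3′ UTR of none of the 10 factors and in 4.90% of those genes. Of the 5 factors that fell, Tcf21 and Tbx20 held TGCTGCT, and Wt1, Gata4 and Bnc2 held neither site. The uncalled factors Gata6, Bnc1, Tbx18 and Scx also held neither. A link between the sites and the calls was not tested.

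The family relatives of the factors were described from a list of 30 genes of the T-box, GATA, EGR and helix-loop-helix families. Of these, 9 had no counts and 13 were tested, of which 5 were called higher in KO, 1 lower and 7 not, with a median log2 fold change of 0.00. The calls were 38.5% higher and 7.69% lower, beside 12.6% and 13.4% of all tested genes. Egr1, an immediate early gene whose zinc fingers resemble those of WT1, rose to 121 ± 10.3 CPM in KO cells, against 71.3 ± 2.81 CPM in EV cells (log2 fold change 0.76, SE 0.0582, edgeR adjusted p = 1.21e-08). Egr2, of the same family, rose to 7.46 ± 0.523 CPM in KO cells, against 5.44 ± 0.666 CPM in EV cells (log2 fold change 0.45, edgeR adjusted p = 0.0105). The paralogous T-box repressors Tbx2 and Tbx3 moved in opposite directions at low levels. Tbx2 had 2.14 ± 0.480 CPM in KO and 3.77 ± 0.310 CPM in EV cells (log2 fold change -0.83, edgeR adjusted p = 0.00229), and Tbx3 had 3.58 ± 0.995 CPM in KO and 1.97 ± 0.293 CPM in EV cells (log2 fold change 0.86, edgeR adjusted p = 0.00464). Without KO replicates 2 and 3 the Tbx3 value was 0.54 with an edgeR adjusted p of 0.148, and that of Egr2 was 0.38 with 0.123. Mga, a large T-box and helix-loop-helix protein, had 84.9 ± 5.94 CPM in KO and 91.9 ± 8.66 CPM in EV cells, and Hand2, a helix-loop-helix factor of the developing heart, had 48.7 ± 3.89 CPM in KO and 49.1 ± 3.92 CPM in EV cells. Neither passed the test (edgeR adjusted p = 0.218 and 0.901).

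Cofactors, dimer partners and other heart transcription factors formed a list of 40 genes, of which 35 were tested, 4 were called higher in KO, 7 lower and 24 not (median log2 fold change 0.02). These shares, 11.4% higher and 20% lower, lie near the 12.6% and 13.4% of all tested genes. Id4, an inhibitor of helix-loop-helix proteins, fell to 7.62 ± 0.464 CPM in KO cells, against 16.4 ± 0.626 CPM in EV cells (log2 fold change -1.10, SE 0.0904, edgeR adjusted p = 2.88e-08). Mef2a, a muscle transcription factor, fell to 124 ± 2.90 CPM in KO cells, against 150.3 ± 7.31 CPM in EV cells (log2 fold change -0.27, edgeR adjusted p = 0.000178), and Nr2f2, the nuclear receptor COUP-TFII, to 42.9 ± 3.75 CPM in KO, against 54.4 ± 2.72 CPM in EV cells (log2 fold change -0.34, edgeR adjusted p = 0.000622). Sox9, a factor of cartilage and valve mesenchyme, rose to 5.52 ± 0.969 CPM in KO cells, against 2.75 ± 0.713 CPM in EV cells (log2 fold change 0.99, edgeR adjusted p = 0.000422). Tead1, a partner of the YAP coactivator, had 452 ± 23.6 CPM in KO and 463 ± 34.9 CPM in EV cells, and Id3 had 217 ± 11.1 CPM in KO and 217 ± 18.1 CPM in EV cells. Both were without a call.

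Genes known from mouse or human work to be regulated by 1 or more of the factors formed a list of 35. Of 25 tested, 13 were called lower in KO, 5 higher and 7 not, with a median log2 fold change of -0.17. The lower calls were 52.0% of the tested genes, beside 13.4% of all genes, and the higher calls were 20%, beside 12.6%. Since this list was chosen with earlier results of these data known, its shares of lower and higher calls are a description. It was not divided by factor or by direction of regulation, and it includes targets of factors that were not called. A link between the falls of the factors and these genes was not tested. Podxl, which encodes podocalyxin and is activated by WT1 in kidney podocytes, fell to 348 ± 5.52 CPM in KO cells, against 672 ± 34.1 CPM in EV cells (log2 fold change -0.95, SE 0.0453, edgeR adjusted p = 1.84e-11). Vdr, the vitamin D receptor gene, fell to 48.0 ± 2.09 CPM in KO cells, against 77.2 ± 4.19 CPM in EV cells (edgeR adjusted p = 2.32e-08). In the other direction, Col1a1, a type I collagen gene that SCX activates in tendon, rose to 13850 ± 385.5 CPM in KO cells, against 9668 ± 566 CPM in EV cells (log2 fold change 0.52, SE 0.0428, edgeR adjusted p = 3.02e-08). The cell-cycle inhibitor gene Cdkn1a rose to 39.6 ± 0.692 CPM in KO cells, against 23.9 ± 1.55 CPM in EV cells (log2 fold change 0.72, edgeR adjusted p = 6.13e-08). Acta2, smooth muscle actin, had 558 ± 64.3 CPM in KO and 541 ± 48.6 CPM in EV cells, and Igf1r, a growth factor receptor gene, had 45.5 ± 5.94 CPM in KO and 50.9 ± 2.88 CPM in EV cells (edgeR adjusted p = 0.674 and 0.121).

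**Figure D4:**
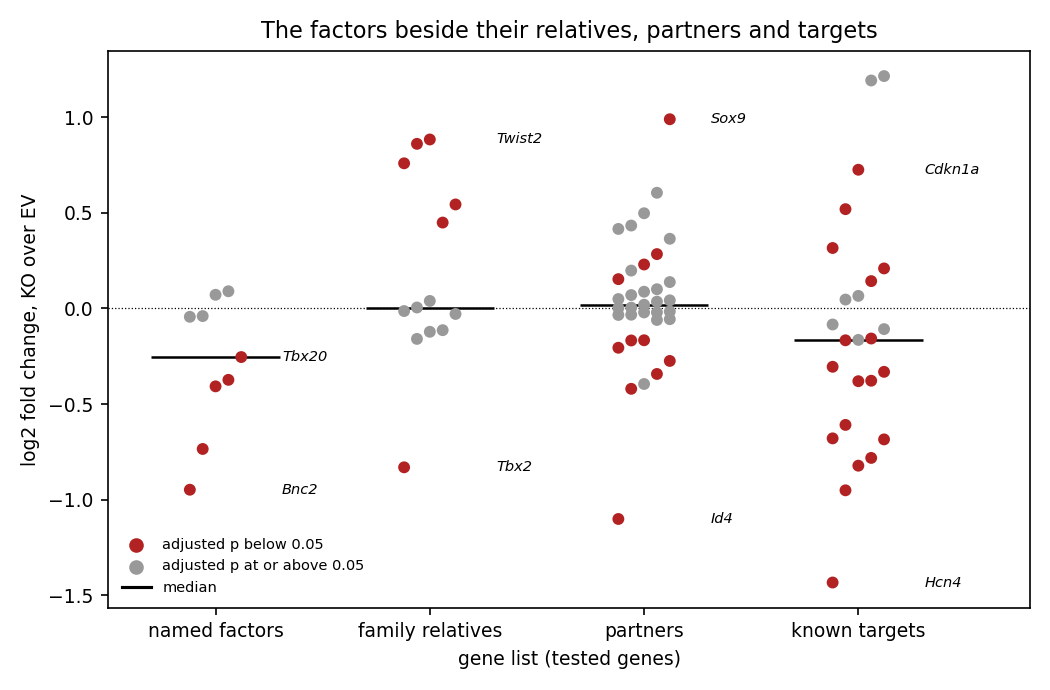
The log2 fold change, KO over EV, of every tested gene is drawn in 4 columns: 9 of the 10 factors, 13 family relatives, 35 partners and 25 known targets, with red for an adjusted p below 0.05, grey for the others and a black line at each median. Medians were -0.255, 0.00, 0.02 and -0.165 in that order, and the gene names mark the lowest and highest red point of each column.

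For each factor that fell, the genes closest in pattern were taken by Pearson correlation of log2 CPM over the 8 libraries, which fall into a KO and an EV group and share their depth and scaling. The r values describe these libraries and carry no test. Ptk2b (r = 0.994) and Stk39 (0.993) were closest to Wt1, Golga7 (0.992) and Mgst1 (0.987) to Tcf21, and Ankrd28 (0.996) and Plxna4 (0.988) to Tbx20. Gata4 was most like H2-Q4 (0.990), whose reads may be shared with near-identical genes of its family, and Cadm4 (0.988), and Bnc2 was most like Fbln1 (0.994) and Ccbl2 (0.992). Fbln1, the gene of the matrix protein fibulin, had 31.2 ± 2.11 CPM in KO and 58.1 ± 2.85 CPM in EV cells (log2 fold change -0.89, where Bnc2 had -0.95).

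The cell label was checked against marker lists. Of 20 epicardial and mesothelial genes, 18 were tested, with 5 higher in KO (27.8%), 6 lower (33.3%) and 7 not called, beside 12.6% higher and 13.4% lower among all tested genes, a background that also applies to the counts of the other marker lists. Their summed level was 7700 to 8070 CPM in KO and 7680 to 8080 CPM in EV libraries. Upk3b (1465 ± 42.8 CPM in KO, 1858 ± 80.5 CPM in EV) and mesothelin, Msln (926 ± 23.98 CPM in KO, 683 ± 29.2 CPM in EV), were abundant. Aldh1a2, the retinoic acid synthesis gene of the embryonic epicardium, was at 0.251 ± 0.138 CPM in KO and 0.407 ± 0.0574 CPM in EV cells. Itga4, an integrin of the epicardium, had 3 counts over all 8 libraries. Summed fibroblast markers were at 34700 to 36200 CPM in KO and 26200 to 28200 CPM in EV libraries, with 4 of 7 tested members higher (57.1%) and 3 lower (42.9%). Nearly all of that sum was Col1a1, Col1a2, Col3a1 and Dcn, the members called higher, while Postn, Pdgfra and Lum were called lower. Smooth muscle markers summed to 1600 to 1730 CPM in KO and 1840 to 1980 CPM in EV libraries (4 of 7 lower, 57.1%). Cardiomyocyte markers summed to 114 to 131 CPM in KO and 148 to 164 CPM in EV libraries, nearly all of it Tnnt2, with Nppa at 0. Endothelial markers summed to 22.1 to 24.2 CPM in KO and 30.4 to 32.6 CPM in EV libraries, with Pecam1 and Cdh5 below 0.2 CPM on average in both groups. Most of that sum was Kdr, a receptor for vascular growth factors, which was lower at 14.6 ± 0.665 CPM in KO and 21.7 ± 1.11 CPM in EV cells (edgeR adjusted p = 1.32e-05), and Tek, the angiopoietin receptor gene, which was higher at 5.19 ± 0.280 CPM in KO and 3.89 ± 0.484 CPM in EV cells (edgeR adjusted p = 0.0298). Robo4 was also called lower, at 0.620 ± 0.272 CPM in KO and 1.65 ± 0.290 CPM in EV cells (edgeR adjusted p = 0.00171). Blood markers summed to 9.81 to 11.1 CPM in KO and 6.52 to 7.78 CPM in EV libraries, with Ptprc near 0. Most of it was the lysosomal gene Cd68, higher at 7.89 ± 0.761 CPM in KO and 4.74 ± 0.555 CPM in EV cells (edgeR adjusted p = 0.000233). Liver markers summed to 17.0 to 33.7 CPM in KO and 12.9 to 15.2 CPM in EV libraries, with 4 of 8 tested members higher and 1 lower. Every KO library was above every EV library in this sum, and KO replicates 2 and 3 were the highest. Without KO replicates 2 and 3 the same 5 factors were called. The part of the fibroblast, smooth muscle, cardiomyocyte, endothelial, blood and liver markers in the falls of the 5 factors was not tested. Hdac3 itself had 61.6 ± 3.23 CPM in KO and 61.9 ± 1.53 CPM in EV cells (edgeR adjusted p = 0.956). No source used here gives the position of the edit, so this level does not check the labels.

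Library totals were 19173812 to 24564892 counts in KO and 18063745 to 22289125 counts in EV libraries, and the first principal component, with 54.4% of the variance, separated the groups. KO libraries lay at -15.5 to -12.7 on it and EV libraries at 12.8 to 18.2. KO replicate 1, whose labels conflict, lay at -15.5, with the KO libraries. EV replicate 4 was the farthest from its group. It was the highest EV library for Wt1, Tbx18, Tbx20, Bnc1 and Bnc2 and the lowest for Gata4, Tcf21 and Scx. The 5 calls were the same without it, and under each of 20 alternative settings.

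**Figure D5:**
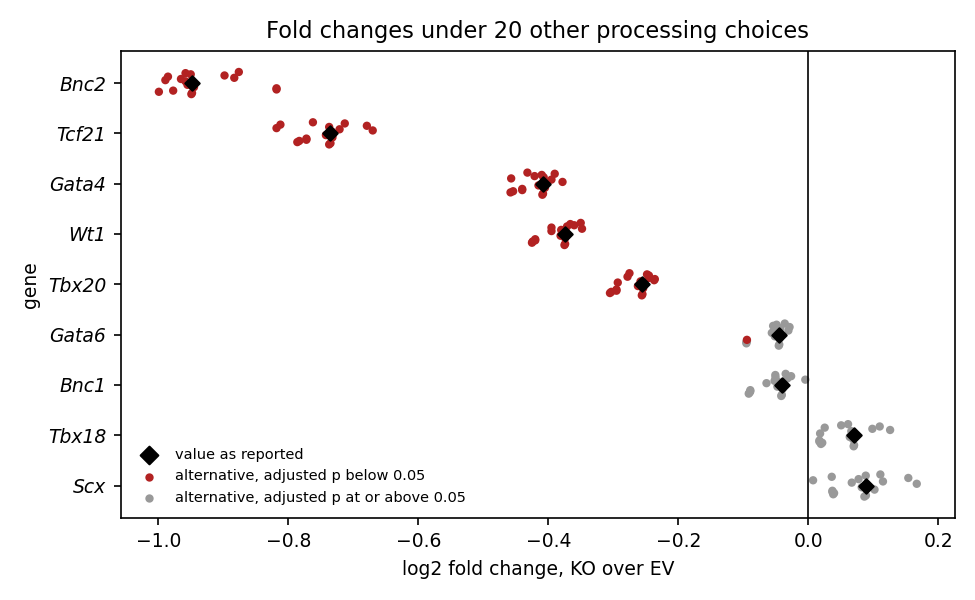
The log2 fold change of each tested factor, KO over EV, is shown as reported (black diamond) and under 20 other processing choices or with libraries left out (dots; red for an adjusted p below 0.05, grey for the others). The dots of Bnc2, Tcf21, Gata4, Wt1 and Tbx20 are red and below 0 in all 20, and the only red dot among the other 4 genes is 1 of Gata6, at -0.09.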

How the data were processed

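The authors deposited raw read counts per gene and FPKM values for 35275 genes in 8 libraries. Per the labels and the submitters' processing notes the build was mm10 and DESeq 1.6.3 was used, while the series design text names DESeq2. Which aligner, counter, annotation release and strand setting the authors used was not given in the sources used here. FPKM values as deposited equal counts divided by gene length and column total for 100.0% of nonzero values, within 1e-06. Libraries were grouped by title. No 2 replicates were duplicates: chi-square values between replicates were 4.01 to 13.2 times their degrees of freedom.

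Counts were tested with edgeR 4.0.16 in R 4.3.3 (TMM, filterByExpr with a minimum count of 10 and a minimum total of 15, quasi-likelihood F test, two-sided, Benjamini-Hochberg adjustment, threshold 0.05), on 12801 genes with 4 libraries a group. The code was tested on simulated data. Levels are TMM-scaled CPM or deposited FPKM, as mean ± SD, and 95% intervals come from the fitted model. Totals of 18063745 to 24564892 counts make 3 counts equal to 0.122 to 0.166 CPM, and such floors cover counting error only. The biological coefficient of variation was 6.41%. Ratios of FPKM, with 0.1 added to each value, had an exact permutation test. Alternatives were DESeq2 1.42.0, limma-voom and limma 3.58.1 on log2 FPKM, other scaling factors and filters, the replicate number as a block, and libraries left out.

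The factors, gene lists, ratios and tests were chosen with earlier results of these data known. All factors were named, with every gene that overlaps them and Hdac3. From the lists of relatives, partners and targets, up to 4 called genes with the smallest adjusted p and up to 2 uncalled genes with the highest CPM were named, and for each called factor the 2 genes of at least 5 CPM closest in pattern. Promoters and microRNAs are from RefSeq (GRCm38.p6). Of the 10 factors, 5 matched a promoter, and Wt1, Gata4, Gata6, Tbx5 and Scx did not. The 3′ UTRs are from GENCODE M21 of the same build.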

Additional observations from a re-analysis of the deposited data

Results flagged for a closer look

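Tbx20 in KO cells was flagged because a single library stood apart from the rest of its group. KO replicate 2 had 195.3 CPM, while the other KO libraries had 182.7 to 184.0 CPM, and the gap made up 0.9 of the range of the group, above the 95% critical value of 0.829 for 4 libraries. It was the 1 flag among 24 groups checked, where chance gives about 1 in 20. All 4 KO libraries were below the lowest EV library (207 CPM), and Tbx20 was also called lower without KO replicate 2.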

How the results depend on the processing

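The 5 lower calls kept their direction and their side of the threshold in all 20 alternatives. Log2 fold changes ranged from -0.43 to -0.35 for Wt1, -0.82 to -0.67 for Tcf21, -0.31 to -0.24 for Tbx20, -0.46 to -0.38 for Gata4 and -0.999 to -0.818 for Bnc2, with largest adjusted p values of 0.000535, 0.00226, 0.00445, 0.000934 and 0.000261. Gata6 passed only with limma on log2(FPKM + 1) without a filter (-0.0943, adjusted p = 0.0491), which makes 6 factors lower there. Over all genes, 1613 were called higher and 1711 lower. Library totals alone, which moved the median of all genes to -0.05, gave 1039 higher and 2414 lower. Limma on log2(FPKM + 1), on log2(FPKM + 0.1) and on log2(FPKM + 1) without a filter gave 896, 897 and 766 higher and 2076, 2068 and 1809 lower. Without KO replicates 2 and 3 there were 880 higher and 1094 lower, from fewer libraries. Relatives called higher were 5, against 3 with DESeq2, library totals, no filter or log2(FPKM + 1), and 1 with log2(FPKM + 1) without a filter or without KO replicates 2 and 3. Partners called higher were 4, against 2 in the 3 FPKM fits and without KO replicates 2 and 3, where 4 partners were lower instead of 7. Targets called higher were 5, against 3 in the 3 FPKM fits and without KO replicates 2 and 3. Leaving out single libraries gave 3 to 5 relatives higher and 1 to 2 lower (2 without EV replicate 1), 3 to 7 partners higher (7 without EV replicate 1), and 1239 to 1584 genes higher. Igf1r passed in 4 alternatives, Mga in 1 (without EV replicate 1, adjusted p = 0.0278), and 4833418N17Rik with the replicate block (adjusted p = 0.0319). Tbx3 lost its call in the FPKM + 1 fits (0.276, adjusted p = 0.0539 with and 0.059 without the filter), and Egr2 without the filter (0.278, adjusted p = 0.0538). The cause of these changes was not tested.

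For the ratios, leaving out single libraries gave 0.824 to 0.932 (Bnc1 to Bnc2), -0.409 to -0.318 (Gata4 to Gata6) and 0.299 to 0.358 (Tbx18 to Tbx20), each at the smallest p such a design allows, 0.0571 by the exact permutation test. Without KO replicates 2 and 3 the differences were 0.818, -0.391 and 0.335, where the smallest possible exact p is 0.133.

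Signs turned for 5 genes near 0. Leaving out single libraries gave -0.0226 to 0.032 for Hdac3 (above 0 without KO replicate 2 and, at 0.0116, EV replicate 3), -0.06 to 0.0395 for Hand2 (above 0 without KO replicate 4 and, at 0.0258, EV replicate 1), -0.0695 to 0.0187 for Tead1 (above 0 without EV replicate 4), -0.0513 to 0.0398 for Id3 (below 0 without EV replicate 4 and, at -0.0312 and -0.00945, KO replicate 3 and EV replicate 1) and -0.0352 to 0.0956 for Acta2 (below 0 without KO replicate 4 and, at -0.00399, EV replicate 4). Without KO replicates 2 and 3, Hdac3 was at 0.0244 and Id3 at -0.0495. Id3 and Acta2 were at -0.0492 and -0.00485 with library totals, -0.0462 and -0.00778 with log2(FPKM + 1) with or without a filter, and -0.0464 and -0.00781 with log2(FPKM + 0.1), and Id3 at -0.00557 without a count filter.

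Same-numbered KO and EV libraries had correlations of their deviations of 0.159, -0.0434, 0.0897 and 0.146. KO replicates 1, 3 and 4 each correlated best with the EV library of the same number, replicate 3 only narrowly (0.0871 with EV replicate 2). KO replicate 2 correlated best with EV replicate 4 (0.111). Whether the numbers mark pairs is thus not settled, and the main fit did not use them as pairs. With the replicate number as a block, 1879 genes were higher and 1858 lower, the same 5 factors were called, and the paired ratio differences were 0.887, -0.359 and 0.325, at the smallest exact p of 0.125.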

Other observations

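Further known targets, named after their values were seen, also moved. Among genes linked to WT1, Wnt4, a signal of mesothelial and kidney development, had 32.2 ± 0.995 CPM in KO and 49.1 ± 2.32 CPM in EV cells (log2 fold change -0.61, edgeR adjusted p = 1.86e-07), and Spry1, a feedback inhibitor of receptor tyrosine kinases, had 5.59 ± 0.666 CPM in KO and 9.66 ± 0.790 CPM in EV cells (-0.78, edgeR adjusted p = 5.29e-05). The same list also held genes without a fall, since 5 of its 25 tested genes were higher and 7 were not called. Nes, the nestin gene, was higher at 56.4 ± 2.89 CPM in KO and 48.8 ± 2.15 CPM in EV cells (0.21, edgeR adjusted p = 0.00989). Snai1 and Pdgfa were not called (edgeR adjusted p = 0.499 and 0.546). Pdgfra, a receptor of fibroblast precursors, had 267 ± 4.56 CPM in KO and 347.5 ± 25.4 CPM in EV cells (-0.38, edgeR adjusted p = 1.06e-05). Col1a2, the second chain of type I collagen, had 12920 ± 292 CPM in KO and 10390 ± 372 CPM in EV cells (0.32, edgeR adjusted p = 3.9e-06). Hcn4, a pacemaker channel gene, had 0.585 ± 0.287 CPM in KO and 1.58 ± 0.0382 CPM in EV cells (-1.43, edgeR adjusted p = 0.00161), the lowest fold change of the target list at a very low level.

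Among the inhibitors of helix-loop-helix proteins, Id1 and Id2 were lower beside Id4, and Id3 was not called. Id2 had 23.1 ± 3.06 CPM in KO and 30.98 ± 1.89 CPM in EV cells (-0.42, edgeR adjusted p = 0.0011), and Id1 had 116 ± 9.78 CPM in KO and 134 ± 11.2 CPM in EV cells, with groups that overlapped (-0.21, edgeR adjusted p = 0.0227). Of the FOG cofactors of GATA proteins, Zfpm1 had 109.9 ± 2.87 CPM in KO and 98.9 ± 8.50 CPM in EV cells, with groups that overlapped (0.15, edgeR adjusted p = 0.0498, barely past the threshold). Zfpm2, the FOG gene needed in the mouse heart, had 86.5 ± 2.81 CPM in KO and 88.5 ± 4.08 CPM in EV cells (edgeR adjusted p = 0.663). Id1, Id2, Zfpm1 and Zfpm2 were also named after their values were seen. The simple epithelial keratin gene Krt8 had 13.0 ± 0.961 CPM in KO and 4.17 ± 1.44 CPM in EV cells (1.66, edgeR adjusted p = 1.86e-07), in the epicardial list where Wt1-linked Podxl fell.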
